A study of Mus musculus with 5 samples.

Results

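The protein components of the mitochondrial ribosome were followed through their genes. The samples were a long-term CD8 T cell clone and cultures of spleen cells from mice transgenic for the same antigen receptor. Members were the genes whose symbol is Mrpl or Mrps followed by a digit, without Mrps36, and each was read from its brightest probe set, by mean signal over all 5 arrays, among probe sets annotated to exactly 1 gene symbol. The mean signal over 3 clone and 2 transgenic arrays thus chose the probe set, and the clone weighed more in it. The rule does not take the difference between the groups itself, but the choice is not independent of that difference. This gave 75 members of 18193 genes with such a probe set, 47 with large subunit symbols (Mrpl) and 28 with small subunit symbols (Mrps). All 75 passed the filter on dim probe sets, which required 88.2 or more as the mean of the arrays, and so belong to the 12446 genes tested. Mrpl30 and Mrpl53 are represented on the array only by probe sets annotated to several genes and were not analysed here.

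The clone, G9C8, consists of cytotoxic T cells against an insulin B chain peptide, with 3 separately frozen vials of this 1 clone. It was set against spleen cells of 2 NOD.G9C8 transgenic mice, which carry the receptor of the clone on the NOD/LtJ background and were 4 to 8 weeks old. Both were stimulated for 3 days with 10 µg/ml of the peptide and then held for 2 days in IL2 (5 IU/ml), and each vial and each mouse gave 1 Affymetrix expression array. The labels name no sort after culture, no sex and no genetic background of the clone, and the sources used here do not give the transgene's promoter.

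The mitochondrial ribosome translates the few messenger RNAs of the mitochondrial genome, which encode core subunits of the respiratory chain and of ATP synthase. Its RNA is transcribed in the organelle, while all its proteins are encoded in the nucleus, made in the cytosol and imported. The small subunit binds the messenger RNA and reads its codons, and the large subunit joins the amino acids. Part of the proteins have counterparts in bacterial ribosomes and the others are specific to mitochondria. In T cells, mitochondrial translation is known to be needed for expansion and effector function after activation.

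Groups were compared in limma across all 12446 genes, and calls are genes with an adjusted p (Benjamini-Hochberg) under 0.05. The T cell markers were bright in both groups, with summed signals of Cd8a, Cd8b1, Cd3d, Cd3e and Cd3g of 43882.5 to 51036.4 in clone and 58251.4 to 65890.2 in transgenic arrays, and 3 of 5 were lower in clone. Markers of other cells differed too. The 5 myeloid markers summed to 1197.1 to 1544.1 in clone and 4803.0 to 7304.6 in transgenic arrays, and 3 of the 4 tested were lower in clone. Lyz2 alone gave 3496.8 and 5548.8 on the transgenic arrays, most of their sums. Cd68 went the other way without overlap, with a difference of 0.50, and was not called (adjusted p = 0.0700). The 4 B cell markers measured summed to 372.9 to 605.0 in clone and 1064.6 to 1094.4 in transgenic arrays. Of the 3 tested, 1 was lower in clone, Cd79b, with 31.5, 2.7 and 46.0 in clone against 654.5 and 594.0 in transgenic arrays. The groups overlapped for Cd79a, Ms4a1 and Pax5. None of these markers was at 0 on any array. On every clone array, though, Cd79b, Cd14 and Itgam lay below the filter value of 88.2, so their presence in the clone is not shown. The part of all these markers in the results below was not tested. As in any bulk sample, fewer cells of a type and less RNA per cell cannot be told apart. The ratio of the 3′ to the 5′ control probe set of Gapdh was 0.819 to 0.869 in clone and 0.763 to 0.775 in transgenic arrays. That of Actb was 1.06 to 1.14 in clone and 1.05 in both transgenic arrays.

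Members of the mitochondrial ribosome were mostly higher in clone. Of the 75, 42 were called higher, 2 lower and 31 were not called. Over all genes tested, 22% were called higher and 21.7% lower, against 56.0% and 2.67% of the members. The members were brighter, with a median signal of 1694 against 597 over all genes tested, and its part in the calls was not tested. With the filter at the 60th percentile, 57.3% of the members and 27.8% of the genes then tested were called higher. The differences were moderate in size: their median was 0.38 on the log2(signal + 20) scale, clone minus transgenic, with quartiles at 0.12 and 0.56, against a median of -0.01 over all genes tested. A difference above 0 was seen in 67 of 75 members, against 49.4% of all genes tested. Groups did not overlap in 63 members, against 64.5% of all genes tested without overlap in either direction. In 59 of the 75 members the clone arrays lay above without overlap, against 3968 of the 12446 genes tested. Only 3 members were called higher by at least 2-fold, against 6.84% of all genes tested. The count depends on the arrays used, as does the share over all genes tested. It was 34 without the first clone array and 32 without the third, against 19.3% and 18.8% of all genes tested. Without the second clone array it was 44, against 22.1%. Without either transgenic array 68 of the 75 members were above 0. The median difference over all genes tested was then -0.02 without the first and -0.00 without the second. Fewer members, and fewer of all genes tested, were called higher in these fits than without any clone array. Such a fit assumes that the remaining transgenic array varies like the clone arrays.

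**Figure D1:**
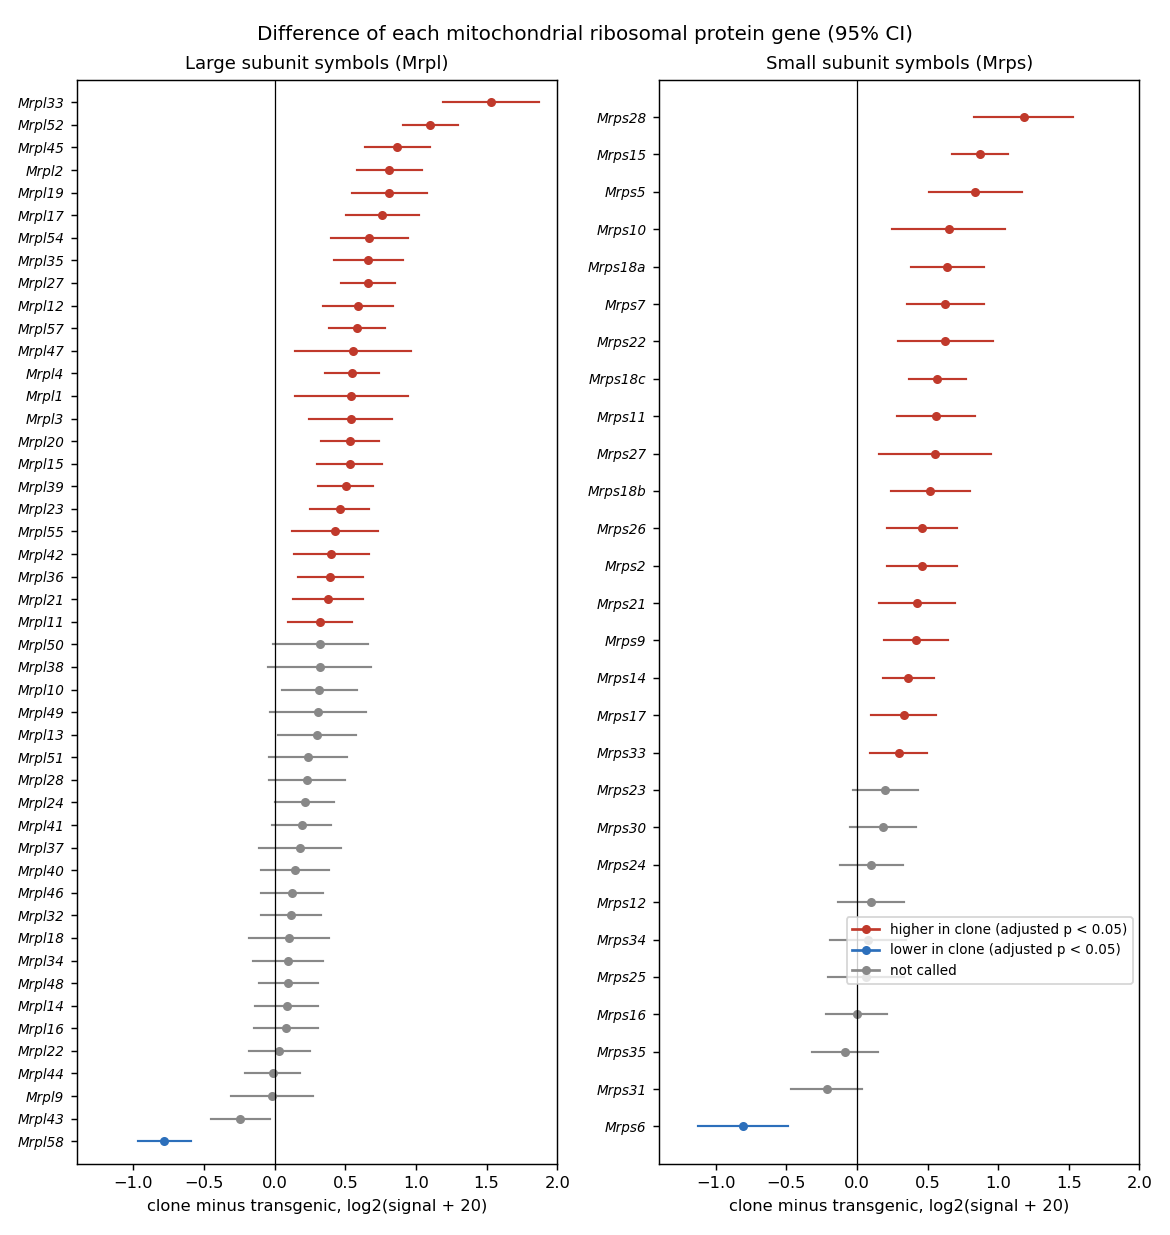
Clone minus transgenic difference on the log2(signal + 20) scale for each of the 75 members, with large subunit symbols in the left panel and small subunit symbols in the right. Points are fitted differences and bars 95% confidence intervals over 3 clone and 2 transgenic arrays; 42 members were called higher, 2 lower (Mrpl58 and Mrps6) and 31 were not called.

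The shift was shared by the arrays of each group. With each gene centred on its mean over the 5 arrays, the median over the 75 members was 0.15, 0.12 and 0.19 on the 3 clone arrays and -0.22 and -0.23 on the 2 transgenic arrays, so that all clone medians lay above both transgenic ones. The medians over all genes tested stayed between -0.01 and 0.02 on every array. Genes of dividing cells were less even among the clone arrays. Their median over 13 genes was 0.53, -0.25 and 0.51 on the clone arrays and -0.43 and -0.26 on the transgenic arrays, so that the second clone array lay far from the other clone arrays and close to the second transgenic one. Of the 13, 5 were called higher and 8 were not called, and their part in the members' differences was not tested. In the same array 50 of the 75 members were lower than on the other clone arrays on average, with a median difference of -0.04. Without that array 44 members were called higher. In the first clone array all 13 division genes were higher by this comparison (median 0.44). Of the members, 34 were higher there and 41 lower (median -0.01). In the third, all 13 division genes (median 0.34) and 53 members were higher and 22 members lower (median of the members 0.05).

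**Figure D2:**
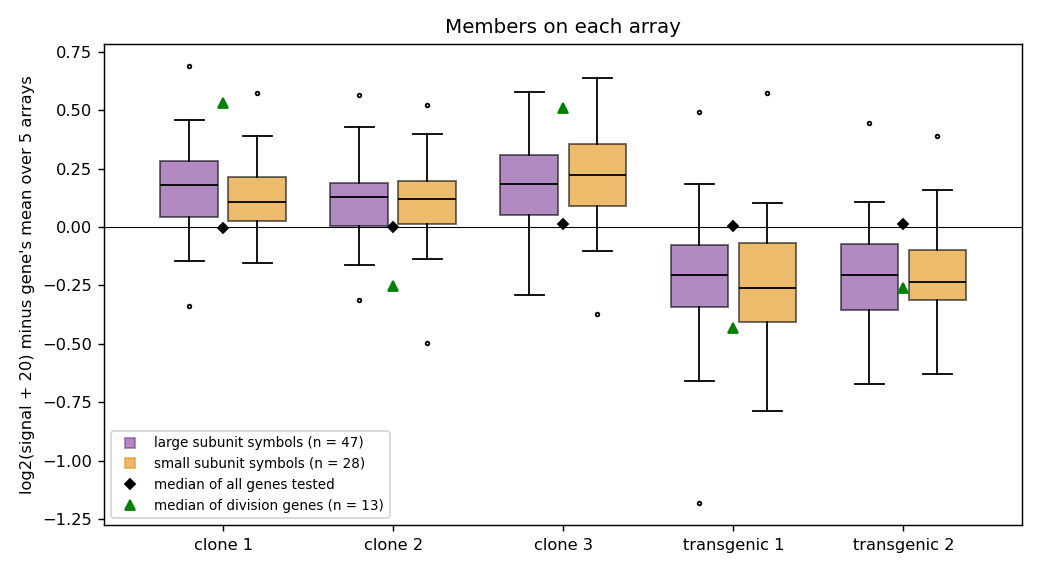
Members on each array, as log2(signal + 20) minus the gene's mean over the 5 arrays, with boxes at the quartiles, lines at the median and whiskers to the farthest value within 1.5 box lengths. Both subunits had medians above 0 on the 3 clone arrays and below 0 on the 2 transgenic arrays, while the median of division genes (triangles) on the second clone array was -0.25.

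Members of both subunits were higher. Among large subunit symbols 24 of 47 were called higher, 1 lower and 22 not, with a median difference of 0.32. Among small subunit symbols 18 of 28 were called higher, 1 lower and 9 not, with a median difference of 0.42. On the arrays, the centred medians of the large subunit were 0.18, 0.13 and 0.18 in clone and -0.20 and -0.20 in transgenic cells. Those of the small subunit were 0.11, 0.12 and 0.22 in clone and -0.26 and -0.24 in transgenic cells. The difference between the subunits was not tested, and its order was turned in 1 alternative: with the mean over all probe sets of a gene the medians were 0.33 for the large and 0.29 for the small subunit. Symbols do not give the place in the ribosome in every case, since Mrps30 and Mrps18a are components of the large subunit. Counted there, 25 of 49 large and 17 of 26 small subunit members were higher, with the same medians of 0.32 and 0.42.

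The members were also split by origin, and the difference between these classes was not tested. Of 47 with a counterpart 32 were higher, 1 lower and 14 not called, with a median difference of 0.46. Of 28 mitochondria-specific members 10 were higher, 1 lower and 17 not called, with a median of 0.22. In the large subunit 18 of 29 members with a counterpart and 6 of 18 specific ones were higher, with medians of 0.43 and 0.27. In the small subunit 14 of 18 with a counterpart and 4 of 10 specific ones were higher, with medians of 0.49 and 0.19.

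The largest differences were those of Mrpl33, Mrps28 and Mrpl52. Mrpl33, the counterpart of a small bacterial large subunit protein, had signals of 3686.7, 3383.9 and 3414.6 on the clone arrays, against 992.8 and 1436.9 on the transgenic arrays. All clone signals lay above both transgenic ones, with a difference of 1.53 (SE 0.15; adjusted p = 8.38e-05), or 2.89-fold on that scale. Mrps28 of the small subunit gave 1177.6, 908.6 and 1230.4 in clone against 446.1 and 499.7 in transgenic cells. Its difference was 1.18 (SE 0.15; adjusted p = 0.000412), without overlap. Mrpl52, a mitochondria-specific protein, gave 3219.2, 3152.1 and 3158.6 in clone against 1477.7 and 1460.1 in transgenic cells. It was the most even of the 3, with an SD of 37.0 over the clone and 12.4 over the transgenic arrays, and differed by 1.10 (SE 0.09; adjusted p = 2.52e-05). Mrpl52 had 3 further probe sets, with differences of 1.04, 1.23 and, at 4.87% of its signal, 0.61.

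The start regions of some members whose difference is described here are printed to show the sequence before and at the start of transcription. Mrpl33 and Mrpl52 stand for the largest differences with a match to an ETS core, Mrpl45 for one with several matches to an NRF1 core, Mrps18a for a match to a YY1 core, and Mrpl58 and Mrps6 for the members that were lower. Each covers 250 bases before to 50 after the start, from RefSeq on GRCm38.p6, written 5′ to 3′ on the strand of the gene, with motif matches in capitals.
Mrpl33, chr5:31613701-31614000, plus strand: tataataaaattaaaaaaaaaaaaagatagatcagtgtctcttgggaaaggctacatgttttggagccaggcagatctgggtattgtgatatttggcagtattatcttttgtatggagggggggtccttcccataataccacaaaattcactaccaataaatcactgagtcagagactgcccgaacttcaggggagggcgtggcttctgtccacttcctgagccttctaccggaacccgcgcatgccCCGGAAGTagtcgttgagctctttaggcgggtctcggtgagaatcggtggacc
Mrpl52, chr14:54426659-54426958, plus strand: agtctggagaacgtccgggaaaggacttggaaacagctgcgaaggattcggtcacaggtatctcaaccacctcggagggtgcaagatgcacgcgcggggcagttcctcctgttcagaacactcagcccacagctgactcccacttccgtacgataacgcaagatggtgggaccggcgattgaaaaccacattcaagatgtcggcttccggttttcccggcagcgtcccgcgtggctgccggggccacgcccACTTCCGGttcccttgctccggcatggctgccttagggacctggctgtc
Mrpl45, chr11:97315466-97315765, plus strand: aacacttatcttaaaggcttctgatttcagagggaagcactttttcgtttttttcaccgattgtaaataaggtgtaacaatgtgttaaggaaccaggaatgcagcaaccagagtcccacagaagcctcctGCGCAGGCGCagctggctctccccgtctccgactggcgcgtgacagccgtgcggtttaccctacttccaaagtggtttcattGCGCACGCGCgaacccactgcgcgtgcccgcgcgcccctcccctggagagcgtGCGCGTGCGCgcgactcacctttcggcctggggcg
Mrps18a, chr17:46110754-46111053, plus strand: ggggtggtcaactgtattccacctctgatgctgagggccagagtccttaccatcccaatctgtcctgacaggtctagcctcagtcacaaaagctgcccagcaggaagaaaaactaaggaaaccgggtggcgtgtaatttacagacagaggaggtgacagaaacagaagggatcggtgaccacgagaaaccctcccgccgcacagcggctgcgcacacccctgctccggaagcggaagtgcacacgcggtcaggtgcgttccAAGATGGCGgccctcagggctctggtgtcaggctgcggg
Mrpl58, chr11:115403502-115403801, plus strand: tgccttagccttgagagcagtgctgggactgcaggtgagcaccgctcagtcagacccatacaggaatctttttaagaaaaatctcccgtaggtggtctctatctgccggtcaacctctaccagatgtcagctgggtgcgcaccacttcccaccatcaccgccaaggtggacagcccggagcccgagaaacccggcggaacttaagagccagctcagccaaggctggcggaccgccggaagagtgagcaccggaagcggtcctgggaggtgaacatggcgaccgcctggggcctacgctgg
Mrps6, chr16:92058086-92058385, plus strand: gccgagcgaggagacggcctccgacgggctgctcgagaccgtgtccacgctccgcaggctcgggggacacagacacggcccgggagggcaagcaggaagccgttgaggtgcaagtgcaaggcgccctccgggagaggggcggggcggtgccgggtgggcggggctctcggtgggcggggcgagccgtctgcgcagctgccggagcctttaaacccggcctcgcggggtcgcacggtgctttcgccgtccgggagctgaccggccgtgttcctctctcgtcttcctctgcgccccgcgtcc

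NRF1 and the ETS factor GABP are known activators of nuclear genes for mitochondrial proteins, and YY1 binds near the start of many of them. Their cores were searched on both strands as GCGC, any base and TGCGC for NRF1, CCGGAAGT for ETS factors and AAGATGGCG for YY1. No core contains another, although matches may overlap by a few end letters. RefSeq start regions were found for 66 of the 75 members and for 17491 protein-coding genes in all. The members without one were Mrpl4, Mrpl13, Mrpl15, Mrpl19, Mrpl38, Mrpl54, Mrps28, Mrps34 and Mrps35. The NRF1 core was present in 12 of 66 members (18.2%) against 7.17% of all these genes, and the ETS core in 12 of 66 (18.2%) against 5.69%. The YY1 core was present in 8 of 66 (12.1%) against 2.14%. At least 1 of the 3 was present in 30 of 66 members (45.5%) against 13.9% of genes. By call, this held for 20 of 37 members that were higher, 10 of 27 that were not called and 0 of 2 that were lower. In Mrpl33 the ETS core started at position -3 and in Mrpl52 at 2, counted from 1 at the first transcribed base, with no position 0. In Mrpl45 the NRF1 core matched at -120, -38 and 16, and in Mrps18a the YY1 core at 12. A match describes letters in the window and not binding.

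The largest large subunit differences after Mrpl33 and Mrpl52 were those of Mrpl45 and Mrpl2. Mrpl45, which anchors the ribosome to the inner membrane near the tunnel exit, gave 2030.4, 2042.7 and 2047.5 in clone against 1190.3 and 1034.7 in transgenic cells, without overlap (difference 0.87, SE 0.10; adjusted p = 0.000229). Mrpl2, a core protein close to the catalytic centre, gave 1367.5, 1334.0 and 1443.2 in clone against 763.8 and 792.1 in transgenic cells, again without overlap (difference 0.81, SE 0.10; adjusted p = 0.000347).

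Mrpl19 and Mrpl17 are further counterparts of bacterial proteins. Mrpl19 gave 1717.6, 1534.0 and 1888.5 in clone against 971.1 and 956.9 in transgenic cells, and Mrpl17 gave 2165.3, 1793.6 and 2137.5 in clone against 1205.4 and 1167.3 in transgenic cells. Both were without overlap and differed by 0.81 (adjusted p = 0.000660) and 0.76 (adjusted p = 0.000848). Mrpl54 (0.67, adjusted p = 0.00213) completed the 7 large subunit members among the 10 largest increases. Mrpl24, Mrpl32 and Mrpl9, the large subunit members of highest signal that were not called, differed by 0.21 (95% confidence interval 0.00 to 0.42), 0.11 (-0.10 to 0.33) and -0.02 (-0.31 to 0.27). The clone arrays of Mrpl24 lay above both transgenic ones, while those of Mrpl32 and Mrpl9 overlapped them. The other 14 large subunit members that were higher had differences of 0.39 to 0.66. Mrpl35 and Mrpl27 stood at the top of them, and Mrpl55, Mrpl42 and Mrpl36, counterpart of a very small bacterial protein, at the bottom.

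The stalk of the large subunit recruits translation factors. Mrpl12, which forms the flexible stalk and is also known to bind the mitochondrial RNA polymerase, gave 2668.7, 2347.3 and 2857.3 in clone against 1760.0 and 1704.7 in transgenic cells (difference 0.59, SE 0.11; adjusted p = 0.00243). Mrpl11 at the base of the stalk differed by 0.32 (adjusted p = 0.0278), a call lost without the third clone array or either transgenic one (adjusted p = 0.0768 to 0.122). Mrpl10, which holds the Mrpl12 copies, differed by 0.32 without passing the test (adjusted p = 0.0559; 95% confidence interval 0.05 to 0.58). The Mrpl10 call sits at the threshold: it passed with quantile normalization (adjusted p = 0.0366), the stricter filter (0.0454) and the mean over probe sets (0.0487).

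In the small subunit the largest differences after Mrps28 were those of Mrps15 and Mrps5, counterparts of bacterial core proteins. Mrps15 gave 3310.3, 3568.2 and 3459.6 in clone against 1857.2 and 1882.3 in transgenic cells, without overlap (difference 0.87, SE 0.09; adjusted p = 9.6e-05). Mrps5 gave 589.3, 740.1 and 623.9 in clone against 362.3 and 345.4 in transgenic cells (difference 0.84, SE 0.14; adjusted p = 0.00178). Mean signals of the members reached from 338 for Mrps27, which has repeats of the RNA-binding pentatricopeptide type, to 5392 for Mrps14. Probe sets differ in how well they bind, so this is no order of transcript levels. Mrps27 differed by 0.55 (adjusted p = 0.0304), a call lost without the first clone array, without the third clone array or without either transgenic one (adjusted p = 0.0708 to 0.179). Mrps14 differed by 0.36 (adjusted p = 0.00600), a call lost without the first transgenic array (adjusted p = 0.0502). Mrps16, a bacterial counterpart, gave 5019.4, 5480.6 and 5198.0 in clone against 5617.6 and 4869.2 in transgenic cells. Its groups overlapped and its difference was -0.00 (95% confidence interval -0.22 to 0.22; adjusted p = 0.998). The other 10 small subunit members that were higher had differences of 0.30 to 0.65, with Mrps10, Mrps7 and Mrps22 at the top.

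**Figure D3:**
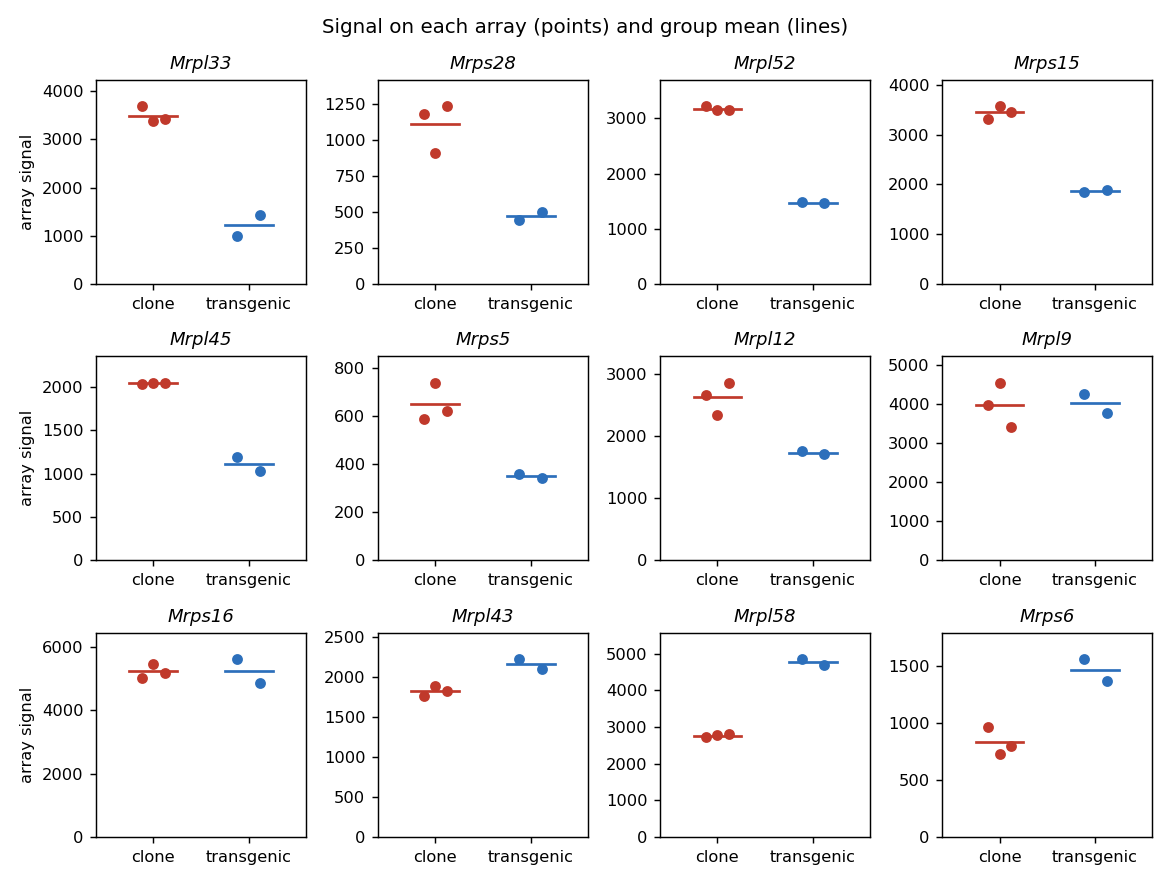
Array signal of 12 members on each of 3 clone and 2 transgenic arrays, with points for arrays and lines for group means, each panel on its own axis from 0. Mrpl33, Mrps28, Mrpl52, Mrps15, Mrpl45, Mrps5 and Mrpl12 were higher in clone without overlap, Mrpl9 and Mrps16 overlapped, Mrpl43 was not called, and Mrpl58 and Mrps6 were lower.

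The paralogues Mrps18a, Mrps18b and Mrps18c were all higher. They descend from 1 bacterial small subunit protein, and the first of them sits in the large subunit. Mrps18a gave 1929.8, 1947.1 and 2204.6 in clone against 1191.5 and 1399.3 in transgenic cells. Mrps18b gave 1006.6, 1202.6 and 1225.8 in clone against 781.3 and 798.2 in transgenic cells. Mrps18c gave 3009.4, 2782.5 and 2924.4 in clone against 1930.2 and 1972.4 in transgenic cells. No clone array of the 3 genes overlapped a transgenic one, and the differences were 0.64, 0.52 and 0.57, each called higher (adjusted p = 0.00213, 0.00871 and 0.00107). Without the first transgenic array Mrps18b lost its call (adjusted p = 0.0592). Mrpl37 and Mrps30, another related pair, both of the large subunit, differed by 0.18 and 0.18 and were not called (adjusted p = 0.299 and 0.187).

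The members that were lower in clone were Mrps6 and Mrpl58. Mrpl58 is the ribosome-bound hydrolase that frees stalled chains from their transfer RNA. It gave 2718.2, 2771.2 and 2807.1 in clone against 4849.3 and 4697.8 in transgenic cells, without overlap (difference -0.78, SE 0.08; adjusted p = 0.000126). Its other probe set that passed the filter was dim, with a difference of -0.72. Mrps6, the counterpart of a bacterial small subunit protein, gave 968.0, 731.4 and 799.4 in clone against 1558.6 and 1370.3 in transgenic cells (difference -0.81, SE 0.14; adjusted p = 0.00194). A second Mrps6 probe set differed by -0.77. Mrps6 overlaps Slc5a3, a gene for a myo-inositol transporter, in the RefSeq gene table. Slc5a3 was also lower, with 251.2, 177.3 and 151.7 in clone against 484.0 and 447.3 in transgenic cells (difference -1.21; adjusted p = 0.00221), so the signals of the overlapping genes may not be separate. In all, 19 members overlap 20 other genes there, of which 5 were higher, 3 lower, 10 not called and 2 not tested. Over all genes tested, 22% were higher and 21.7% lower. The partners of Mrpl2, Mrpl19, Mrpl21, Mrpl24 and Mrps18a were not called, while Mrps7, which was higher, overlaps Mif4gd (1.18) and Gga3 (0.42), both higher. Mrpl48 overlaps Rab6a, which was higher (0.31), Mrpl43 overlaps Twnk, which was lower (-0.51), and the partner of Mrpl37, Cyb5rl, was not tested. Among uncalled members, Mrpl43 and Mrps31 had clone arrays below both transgenic arrays, with differences of -0.24 (adjusted p = 0.0595) and -0.21 (adjusted p = 0.151); they were chosen after their values were seen. Over all 31 uncalled members the differences reached from -0.24 to 0.32 with a median of 0.10, and 25 were above 0. The groups overlapped in 12 of the 31. In 3 of them, Mrpl10, Mrpl13 and Mrpl24, the 95% confidence interval lay above 0 before adjustment for the number of genes.

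Other probe sets of the same members gave a more divided picture. The members had 80 further probe sets, of which 64 in 37 genes passed the filter, with a median difference of 0.31. The difference had the sign of the brightest probe set in 40 of the 64. A split at 25% of the brightest probe set's signal, chosen after the values were seen, gave the same sign in 25 of 38 at or above it and in 15 of 26 below it, with medians of 0.38 and 0.09. For the members whose further probe sets passed, 17 of 37 genes had the sign of the brightest one in all of them. The choice of the brightest was close for Mrps23, whose chosen probe set differed by 0.20 and a second, at 99.2% of its signal, by -0.46. The chosen one had the higher mean in clone (1386.6 against 1131.5) and the lower mean in transgenic arrays (1203.9 against 1558.8). Among the 4 genes whose probe sets disagreed most, Mrpl33 had a dim second probe set (98.6 in mean signal) that differed by 0.22. One of Mrps5 differed by -0.45, one of Mrpl19 by -0.45 and one of Mrpl21 by -0.85, against 0.84, 0.81 and 0.38 for the brightest. Mrpl3, named after its values were seen, had a probe set at 54.8% of the brightest signal with 1585.3, 1501.1 and 1472.0 in clone against 459.8 and 553.3 in transgenic cells, a difference of 1.55 against 0.54 for its brightest. Mrpl48, also named so, was not called (0.10), while a second probe set with 1412.6, 1344.7 and 1442.8 in clone against 876.6 and 702.2 in transgenic cells differed by 0.82. The suffix of its brightest probe set marks possible cross-hybridization. Mrpl13, also named after its values were seen, was not called (0.30). Its further probe sets differed by 1.17, 0.99 and, at 3.42% of the brightest signal, -0.48. With the mean over probe sets in place of the brightest, 36 members (48%) were higher and 3 lower. Over all genes tested, 21.1% were then higher and 21.5% lower. Mrps5 (0.29, adjusted p = 0.168) and Mrpl19 (0.26, adjusted p = 0.0876) then lost their call, and Mrpl21 changed its sign (-0.24, adjusted p = 0.102). Mrpl21 (adjusted p = 0.0214) also lost its call without the third clone array or either transgenic one (adjusted p = 0.0586 to 0.141).

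**Figure D4:**
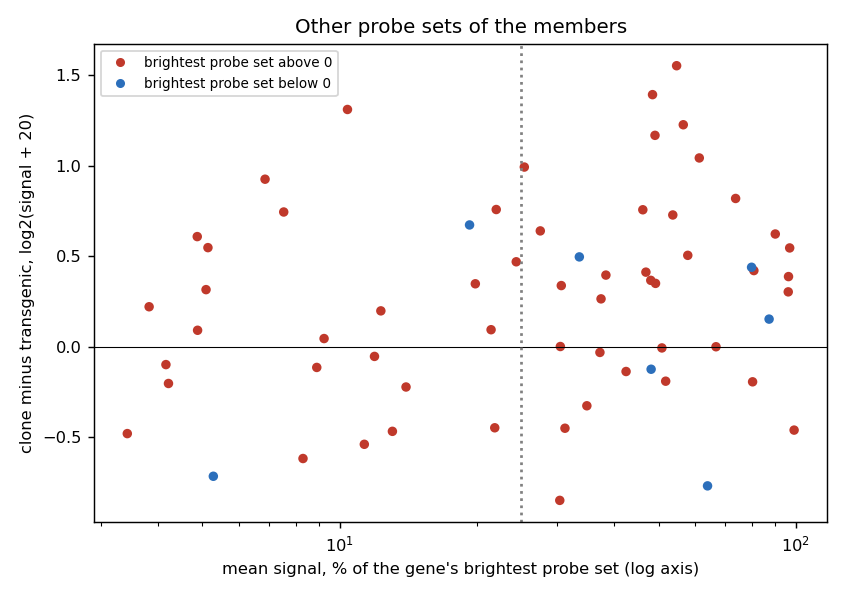
Difference of the 64 further probe sets of the members that passed the filter, against their mean signal as a percentage of the gene's brightest probe set (log axis, dotted line at 25%). Colours give the sign of the brightest probe set; 40 of 64 points share that sign.

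A large share of the members lie head to head with another gene. Of the 66 members with a RefSeq start, 24 (36.4%) had a protein-coding gene on the opposite strand starting within 1000 bases upstream, or up to 100 bases downstream, against 8.66% of all 17491 genes; these limits were chosen after the data were seen. Mrps11 and Mrpl46 are such a pair, 42 bases apart, and differed by 0.56 (adjusted p = 0.00586) and 0.12 (adjusted p = 0.336). Of the 20 partners outside the ribosome that were tested, 5 were higher, 3 lower and 12 not called, with a median difference of 0.09. These counts are near the shares over all genes tested, 22% higher and 21.7% lower. Sars2, encoding the mitochondrial seryl-tRNA synthetase, lies 147 bases from Mrps12 and differed by 0.81 (adjusted p = 0.00639), against 0.10 for Mrps12 (adjusted p = 0.471). Twnk, encoding the mitochondrial DNA helicase, lies 116 bases from Mrpl43 and was lower, by a difference of -0.51 (adjusted p = 0.0280).

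Ribosomal proteins under other symbols were higher in 3 of 4 measured, with a median of 0.66. Dap3, a GTP-binding protein of the small subunit that is also known from cell death, gave 3824.3, 3624.8 and 3898.5 in clone against 1875.0 and 1887.2 in transgenic cells, without overlap (difference 1.00, SE 0.09; adjusted p = 4.37e-05). Gadd45gip1, at the tunnel exit of the large subunit, differed by 0.73 and Chchd1 of the small subunit by 0.58. Mrps36, which the member rule leaves out and which belongs to the oxoglutarate dehydrogenase complex, differed by 0.38 (adjusted p = 0.0125).

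Other machinery of mitochondrial translation had shares of higher genes near that over all genes tested, 22%. Of 16 translation factors and related proteins 4 (25%) were higher, 2 lower and 10 not called (median 0.21). Gatb and Qrsl1, subunits of 1 enzyme that makes mitochondrial glutaminyl-tRNA, went opposite ways, with differences of 0.95 (adjusted p = 0.0287) and -0.93 (adjusted p = 0.00171). The initiation factor gene Mtif3 was lower (-1.05, adjusted p = 0.0202). Of 24 genes for ribosome assembly and ribosomal RNA modification 6 (25%) were higher, 1 lower and 17 not called (median 0.06). Fastkd2 (0.89, adjusted p = 0.00220) and the GTPase gene Noa1 (0.77, adjusted p = 0.00384) were higher and Mettl17 lower (-1.01, adjusted p = 0.00192). Of 14 mitochondrial aminoacyl-tRNA synthetases 3 (21.4%) were higher, 2 lower and 9 not called (median -0.09). Besides Sars2, they included Lars2 (0.57, adjusted p = 0.0434) and Tars2 (-0.58, adjusted p = 0.00620).

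Of 15 genes for copying and expressing mitochondrial DNA 1 (6.67%) was higher, 3 (20%) lower and 11 not called (median -0.04), against 22% higher and 21.7% lower over all genes tested. Hsd17b10, a subunit of mitochondrial RNase P, was higher (0.45, adjusted p = 0.0135), and the polymerase subunit gene Polg2 (-0.54, adjusted p = 0.0223) was lower besides Twnk. Among 9 transcriptional regulators of nuclear genes for mitochondria 1 (11.1%) was higher, 4 (44.4%) lower and 4 not called (median -0.26). Nrf1 gave 416.4, 389.3 and 453.6 in clone against 645.4 and 763.2 in transgenic cells (difference -0.72; adjusted p = 0.00350). The GABP subunit gene Gabpb1 gave 380.4, 361.1 and 380.4 in clone against 782.4 and 714.7 in transgenic cells (difference -0.96; adjusted p = 0.000465). Both lay without overlap below the transgenic arrays, while the coactivator gene Pprc1 was higher (0.83, adjusted p = 0.0168). The Pprc1 signal was 737.5, 421.4 and 663.6 in clone against 309.8 and 339.2 in transgenic cells, lowest on the second clone array among the 3.

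Several of these calls rested on single arrays. Those of Pprc1, Gatb, Mtif3, Twnk and Lars2 were each lost when 1 of at least 2 arrays was left out, Lars2 without any clone array or without the second transgenic one (adjusted p = 0.0599 to 0.347). Those of Polg2, Hsd17b10 and Sars2 were lost without the first transgenic array (adjusted p = 0.216, 0.0964 and 0.0515), and that of Tars2 without the second (adjusted p = 0.0595). Those of Nrf1, Gabpb1, Qrsl1, Mettl17, Fastkd2, Noa1 and Dap3 held with any 1 array left out.

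Cytosolic ribosomal proteins, of which 40 were tested, included 6 (15%) that were higher, 2 (5%) that were lower and 32 uncalled ones, with a median difference of -0.06. Their median signal was 20398, near the arrays' highest signals of 25836.0 to 30579.2, where differences can be compressed, whereas no member exceeded 5392 in mean signal. The largest of their differences were those of Rpl27a (-1.41, adjusted p = 0.000109), Rpl14 (0.70, adjusted p = 0.00197) and Rps27l (0.53, adjusted p = 0.000715). Rpl27a and Rpl14 were read from probe sets with mean signals of only 921 and 722, far below that median, so their differences may not be those of the abundant transcripts.

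**Figure D5:**
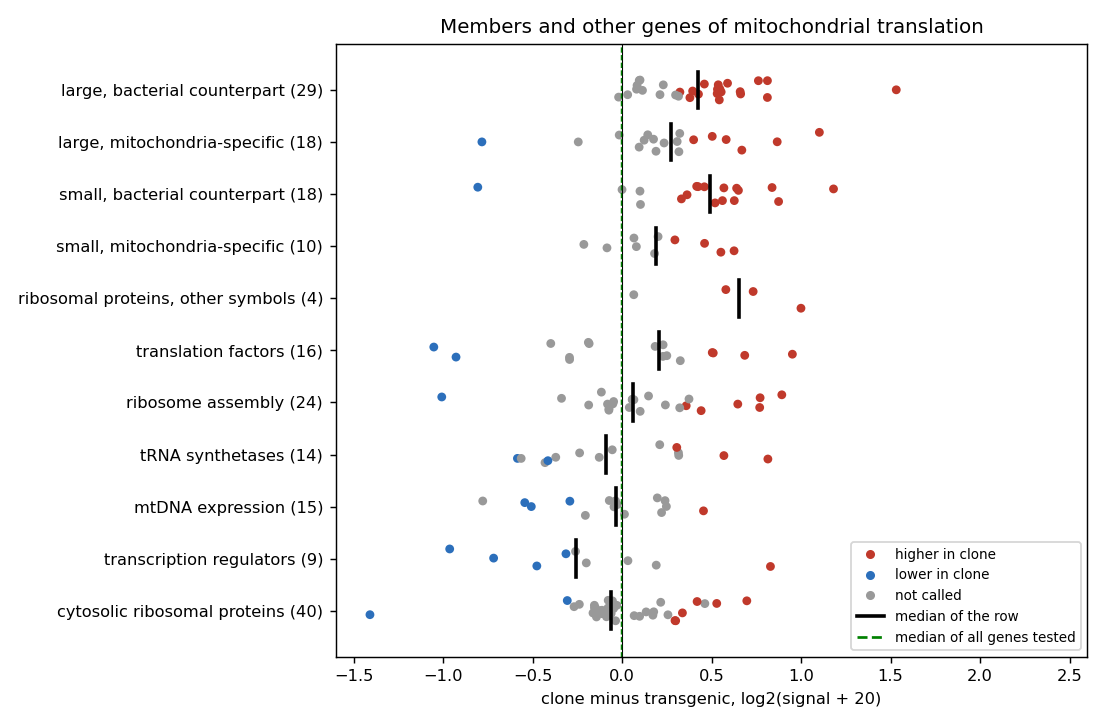
Clone minus transgenic differences on the log2(signal + 20) scale of the members, split by subunit symbol and origin, and of other gene groups, 1 point per tested gene with the number of genes in brackets. Black bars are medians and the dashed line the median of all genes tested; medians were 0.43, 0.27, 0.49 and 0.19 for the 4 groups of members and -0.06 for cytosolic ribosomal proteins.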

How the data were processed

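Arrays were hybridised, 1 for each of 5 cultures, with cRNA from 8 µg of RNA per the labels' protocols. The authors deposited 1 linear intensity per probe set, made with GCOS per the submitters' processing notes, whose version is not given in the sources used here. Their 2% trimmed mean is 500.0 on every array, so they were used as deposited. Of 45101 probe sets, 64 are controls, 34945 carry 1 gene symbol in the platform annotation, 932 several and 9160 none.

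Signals were taken as log2(signal + 20), which understates differences of dim genes. Probe sets below the 40th percentile of mean signal (88.2) were left out and the brightest probe set stood for each gene. Clone and transgenic arrays were compared over all 12446 genes by lmFit and trended eBayes (limma 3.58.1 under R 4.3.3). Tests were two-sided, with Benjamini-Hochberg adjustment over all genes. With 3 residual degrees of freedom, the median standard error was 0.16. Calls needed an adjusted p under 0.05. The p-values rest on the spread among frozen vials of a single clone and a pair of mice. The fit was tested on simulated data.

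The members and gene lists were chosen with earlier results of these data known. Members were named as the 10 largest differences among called ones in each direction, the 4 uncalled ones of highest signal, the highest and lowest signal, set paralogues and stalk proteins, and the 4 genes whose probe sets disagreed most. Up to 3 called genes with the largest differences were named from each other list. Other genes were added for the overlap and neighbour comparisons. The list genes Aurkaip1, Mtrf1 and Taco1 were not analysed here. Start regions come from RefSeq (GRCm38.p6). Tried as alternatives were pseudocounts of 1 and 50, a signal floor of 50, quantile normalization, the 60th percentile or no filter, the mean over probe sets, no cross-hybridizing probe sets, other variance models, the replicate number as a block, each array left out and subunits by structure. Other steps used Python 3.11.15, pandas 2.3.3, numpy 2.4.6 and matplotlib 3.10.9.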

Additional observations from a re-analysis of the deposited data

How the results depend on the processing

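The number of members called higher, 42, was 32 to 44 when 1 clone array was left out, against 18.8% to 22.1% of all genes tested. With 1 transgenic array left out fewer were called, among the members and among all genes tested. Under the other alternatives it was 31 to 44, against 14.6% to 27.8% of all genes tested. The 44 there was of 72 members tested, without cross-hybridizing probe sets. The number called lower was 2 with 1 clone array left out and 2 or 3 otherwise. Large subunit members called higher were 17 to 26 and small subunit members 9 to 18 with 1 array left out. The large subunit median of 0.32 was 0.39 with quantile normalization and 0.40 without cross-hybridizing probe sets, and 0.32 to 0.39 with 1 array left out; the small subunit median of 0.42 was 0.29 with the mean over probe sets and 0.37 to 0.46 with 1 array left out. The cause of these shifts was not tested. The replicate numbers of vials and mice share only a number: the correlation of same-numbered arrays' deviations from their group means was -0.03 and -0.08. With the replicate block 31 members (41.3%) were higher and 2 lower, against 18.3% and 18.9% of all genes tested. The large subunit median was then 0.37. Among named members the sign changed for Mrpl9 (0.10 with the mean over probe sets, 0.086 with the block, -0.12 to 0.086 with 1 array left out), Mrps16 (0.0041 with the block, -0.10 to 0.10 with 1 array left out) and Mrpl21 (-0.24 with the mean over probe sets), of which Mrpl21 alone was called. Over 27 named members and 16 alternatives, 397 values kept sign and call, 21 lost the call, 4 gained it and 9 changed sign. The number of arrays limits the precision, and the values used here carry no detection calls, so which probe sets lay above background is not given.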
